A study of Mus musculus with 23 samples.

Results

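The genes described here are 9 genes of mitochondrial fatty acid oxidation, Cpt1a, Cpt2, Slc25a20, Acadl, Acadm, Acadvl, Hadha, Acaa2 and Etfdh. They were found on the array by the RefSeq transcript that each probe carries, and 11 probes belonged to them, of 55681 probes in all. The array named 20145 genes through these transcripts. Cpt1a and Cpt2 had 2 probes each and the other members had 1. All 11 probes were well above background on all 23 arrays. All 9 members act in mitochondria, and genes of the peroxisomal pathway are described from a separate list further on.

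Gene expression was measured in TM4 cells, an immortalized mouse line used as a model of the Sertoli cell, the somatic cell that nurses developing sperm. For 48 hr the cells received a plasticizer at 100 μM in 1% DMSO, which was BDB, DINCH, DOM, DOS or MEHP, and control cells received 1% DMSO alone. MEHP is mono(2-ethylhexyl) phthalate, the active metabolite of the plasticizer DEHP. DINCH is diisononyl cyclohexane-1,2-dicarboxylate, a commercial replacement, and DOM (dioctyl maleate), DOS (dioctyl succinate) and BDB (1,4-butanediol dibenzoate) are proposed replacements. There were 4 arrays per group and 3 for DOS, each hybridized with Cy3-labelled RNA of 1 sample. The study's methods call the replicates biological, without saying which samples shared a culture. Each array held RNA from whole wells, and a shift in the make-up of the culture cannot be told apart from a change within its cells.

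There were 3 slides, each scanned with several groups. DOM and DOS shared slide rows with DMSO, and MEHP, DINCH and BDB were in the remaining rows, so the row cannot be told apart from the comparison of these last 3 with DMSO. For that reason 4 pairs of compounds within shared rows were also compared directly. As for the labelled cell type, 8 of 14 Sertoli cell markers were well above background on all 4 DMSO arrays, among them Gata4, Dhh, Inhbb and Kitl. The defining markers Wt1, Fshr, Amh, Cldn11 and Trf were above background on no DMSO array. Of 5 Leydig cell markers with a probe, Cyp17a1 was above background on all 4 DMSO arrays, Star on 3 and Cyp11a1, Hsd3b1 and Lhcgr on none. Of 6 germ cell markers only Prm1 was above background on DMSO arrays. Of 5 macrophage and endothelial markers with a probe, Csf1r and Pecam1 were detected on all 4 and Ptprc, Adgre1 and Cdh5 on none. Among 4 peritubular myoid markers Acta2 and Cnn1 were detected on every DMSO array, Des on 1 and Myh11 on none. The summed level of the brightest probes of these 4 markers was 30.3 to 38.7 on the DMSO arrays, 24.5 to 26.6 under MEHP, 35.9 to 50.9 under DINCH, 36.5 to 48.9 under DOM, 32.3 to 42.6 under BDB and 47.6 to 65.7 under DOS, in multiples of the array's 75th percentile. The sum hides opposite moves, since Cnn1 fell by 1.21 on the log2 scale under DOM (limma adjusted p = 0.00097) while Acta2 was at 0.38 there and was not called, and Acta2 was lower under MEHP than under DINCH by 0.76 (limma adjusted p = 0.014). Of the Sertoli cell markers, Inha and Inhbb rose and Sox9 fell under DOM, by 1.05, 1.61 and 0.92 on the log2 scale, and Dhh and Inha rose under DINCH, by 1.09 and 0.64 (limma adjusted p = 0.028 or lower). None was called under MEHP, BDB or DOS. The part of these markers in the results below was not tested.

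Long-chain fatty acids enter mitochondria as carnitine esters. CPT1 at the outer membrane makes the acylcarnitine, the carrier SLC25A20 exchanges it across the inner membrane, and CPT2 turns it back into acyl-CoA. Acyl-CoA dehydrogenases of different chain length preference (ACADVL, ACADL, ACADM) then start each round of beta-oxidation, the trifunctional protein, whose alpha subunit is HADHA, and the thiolase ACAA2 complete it, and ETFDH passes the electrons to ubiquinone. CPT1A is inhibited by malonyl-CoA and is regarded as the controlling step. Several of these genes are textbook targets of the peroxisome proliferator-activated receptors (PPARs), nuclear receptors that bind fatty acids. Sertoli cells are known to oxidize fatty acids for energy while they export lactate to germ cells.

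The bases before the transcription start are shown for Cpt1a and Acadl, the members that a compound raised against DMSO. Sequences are from RefSeq on build GRCm38.p6, 250 bases each, read 5′ to 3′ on the strand of the gene, at chr19:3323051-3323300 on the plus strand for Cpt1a and chr1:66863310-66863559 on the minus strand for Acadl. Capitals mark the nuclear receptor half-site, which reads AGGTCA and is TGACCT where it lies on the opposite strand. They also mark the GC box, which reads GGGCGG and is CCGCCC where it lies on the opposite strand.

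Cpt1a: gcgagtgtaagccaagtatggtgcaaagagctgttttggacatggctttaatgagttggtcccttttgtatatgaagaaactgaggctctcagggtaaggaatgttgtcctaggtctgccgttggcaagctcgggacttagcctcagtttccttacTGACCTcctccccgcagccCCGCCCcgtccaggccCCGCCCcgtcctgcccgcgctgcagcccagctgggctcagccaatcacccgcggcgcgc
Acadl: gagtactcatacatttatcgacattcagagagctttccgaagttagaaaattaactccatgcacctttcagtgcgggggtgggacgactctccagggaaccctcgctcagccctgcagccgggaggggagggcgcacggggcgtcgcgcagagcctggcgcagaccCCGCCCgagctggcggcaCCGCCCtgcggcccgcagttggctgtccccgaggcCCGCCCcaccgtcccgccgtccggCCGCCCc

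The Cpt1a window held 1 half-site, beginning 94 bases before the start, and 2 GC boxes. The Acadl window held 4 GC boxes and no half-site. A half-site was present in 14.0% and a GC box in 32.7% of the 32851 promoters of the same length. A promoter was given for 8 of the members, and the half-site was in those of Cpt1a, Acadm and Acadvl. The spaced repeat AGGTCANAGGTCA, the DR1 form that PPARs bind, was in 0.0335% of all promoters and in none of the 8. The letters in these windows are a description only.

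Cpt1a, which encodes the liver form of CPT1, was the member that differed most between groups. Levels are log2 values relative to the array's 75th percentile, so that 1 unit is a doubling. On the brightest Cpt1a probe the DMSO arrays measured 2.11, 2.48, 2.55 and 2.67. The MEHP arrays measured 3.40, 3.63, 3.53 and 3.63, and the DOM arrays measured 4.03, 4.68, 4.55 and 4.55. Every MEHP and every DOM array lay above every DMSO array.

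The DINCH arrays measured 2.20, 2.18, 2.36 and 2.55 for Cpt1a, the BDB arrays 2.09, 2.00, 2.31 and 2.13, and the DOS arrays 2.54, 2.79 and 2.80. All 3 of these groups overlapped with DMSO. Cpt1a was 2.14-fold higher under MEHP than under DMSO (log2 fold change 1.098 ± 0.13, SE, n = 4 and 4; limma adjusted p = 0.0075) and 4.00-fold higher under DOM (2.00 ± 0.17, SE, n = 4 and 4; limma adjusted p = 0.00021). The dimmer Cpt1a probe gave log2 fold changes of 1.18 and 2.02, with limma adjusted p = 0.017 and 0.00024. The MEHP change was 0.97 to 1.40 within the 3 slides and 1.14 with the slide as a block, and the DOM change was 1.88 to 2.24 and 2.07.

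**Figure D1:**
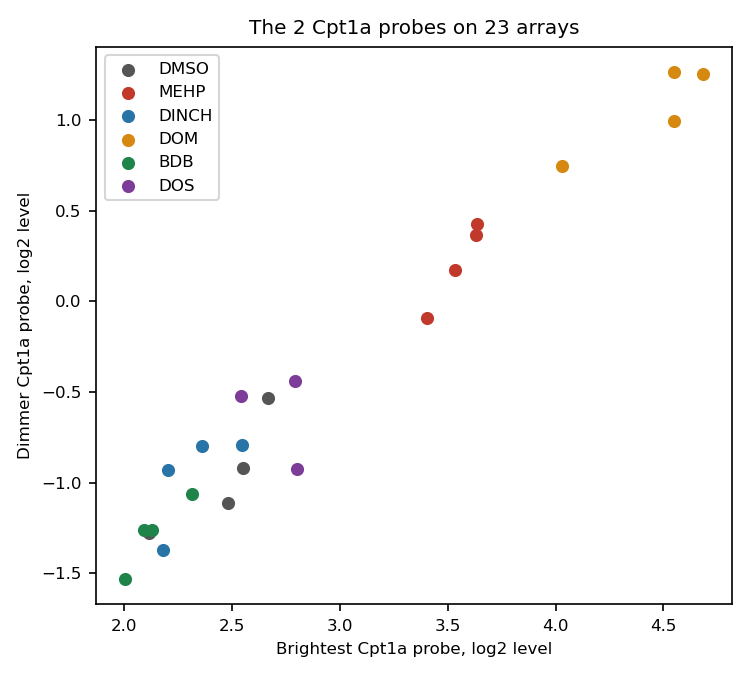
Log2 level on the brightest (x axis) and dimmer (y axis) Cpt1a probe, each relative to the array's 75th percentile. Each point is 1 of 23 arrays, coloured by group. The 4 DOM arrays lie at 4.03 to 4.68 on the x axis, the 4 MEHP arrays at 3.40 to 3.63, and the other 15 arrays at or below 2.80.

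The order of the Cpt1a group means was DOM at 4.45, MEHP at 3.55, DOS at 2.71, DMSO at 2.45, DINCH at 2.32 and BDB at 2.13. DOM and MEHP did not overlap, nor did MEHP and DOS, while each of the lower neighbours overlapped with the next. The DOM and MEHP arrays lay in different rows, and their difference is given without a test. Against DMSO, the log2 fold change of Cpt1a was -0.13 under DINCH (95% interval -0.45 to 0.19), -0.32 under BDB (-0.61 to -0.03) and 0.26 under DOS (-0.08 to 0.60). None of these 3 passed the test, with limma adjusted p = 0.62, 0.31 and 0.80.

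Acadl, the long-chain acyl-CoA dehydrogenase, rose under MEHP. The DMSO arrays measured 1.76, 1.74, 1.64 and 1.80 and the MEHP arrays 2.60, 2.28, 2.42 and 2.36. No MEHP array overlapped with DMSO, and the fold was 1.60 (log2 fold change 0.68 ± 0.09, SE, n = 4 and 4; limma adjusted p = 0.011). The change was 0.56 to 0.73 within slides and 0.66 with the slide as a block.

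The DOM arrays measured 1.71, 1.49, 1.82 and 1.78 for Acadl, on both sides of DMSO, with a log2 fold change of -0.04 (95% interval -0.27 to 0.19). The DINCH arrays measured 2.22, 1.77, 1.87 and 2.27, the BDB arrays 1.70, 1.45, 1.43 and 1.45, and the DOS arrays 1.499, 1.47 and 1.21. All 3 DOS arrays lay below every DMSO array, but the change of -0.35 did not pass (limma adjusted p = 0.57), and neither did 0.29 under DINCH and -0.23 under BDB (limma adjusted p = 0.19 and 0.30). In the order of means MEHP at 2.41 came first and DOS at 1.39 last, so the order differed from that of Cpt1a.

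The other steps of the carnitine shuttle moved less. Cpt2 on its brightest probe measured 3.29, 3.24, 3.15 and 3.37 on the DMSO arrays and 3.76, 3.64, 3.86 and 3.88 on the MEHP arrays, which did not overlap. The difference of 0.52 had an adjusted p of 0.023 in limma but stood at 1.44-fold, under the 1.5-fold required for a call. The dimmer Cpt2 probe gave 0.39 and overlapped with DMSO (limma adjusted p = 0.32). Under DOM, DINCH, BDB and DOS the brightest probe of Cpt2 gave 0.26, 0.10, -0.23 and -0.12, with no call.

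Slc25a20, the carnitine-acylcarnitine carrier, measured 0.27, 0.06, 0.24 and 0.32 on the DMSO arrays. The DOM arrays measured 0.59, 0.93, 0.78 and 0.62, all above DMSO, and the log2 fold change of 0.51 had an adjusted p of 0.0082 in limma at 1.42-fold, so it was not called either. The MEHP arrays measured 0.51, 0.70, 0.53 and 0.44, all above DMSO as well, with 0.32 (limma adjusted p = 0.12). The DINCH arrays measured -0.21, -0.17, -0.15 and 0.16, of which 3 lay below every DMSO array (-0.31, limma adjusted p = 0.12).

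**Figure D2:**
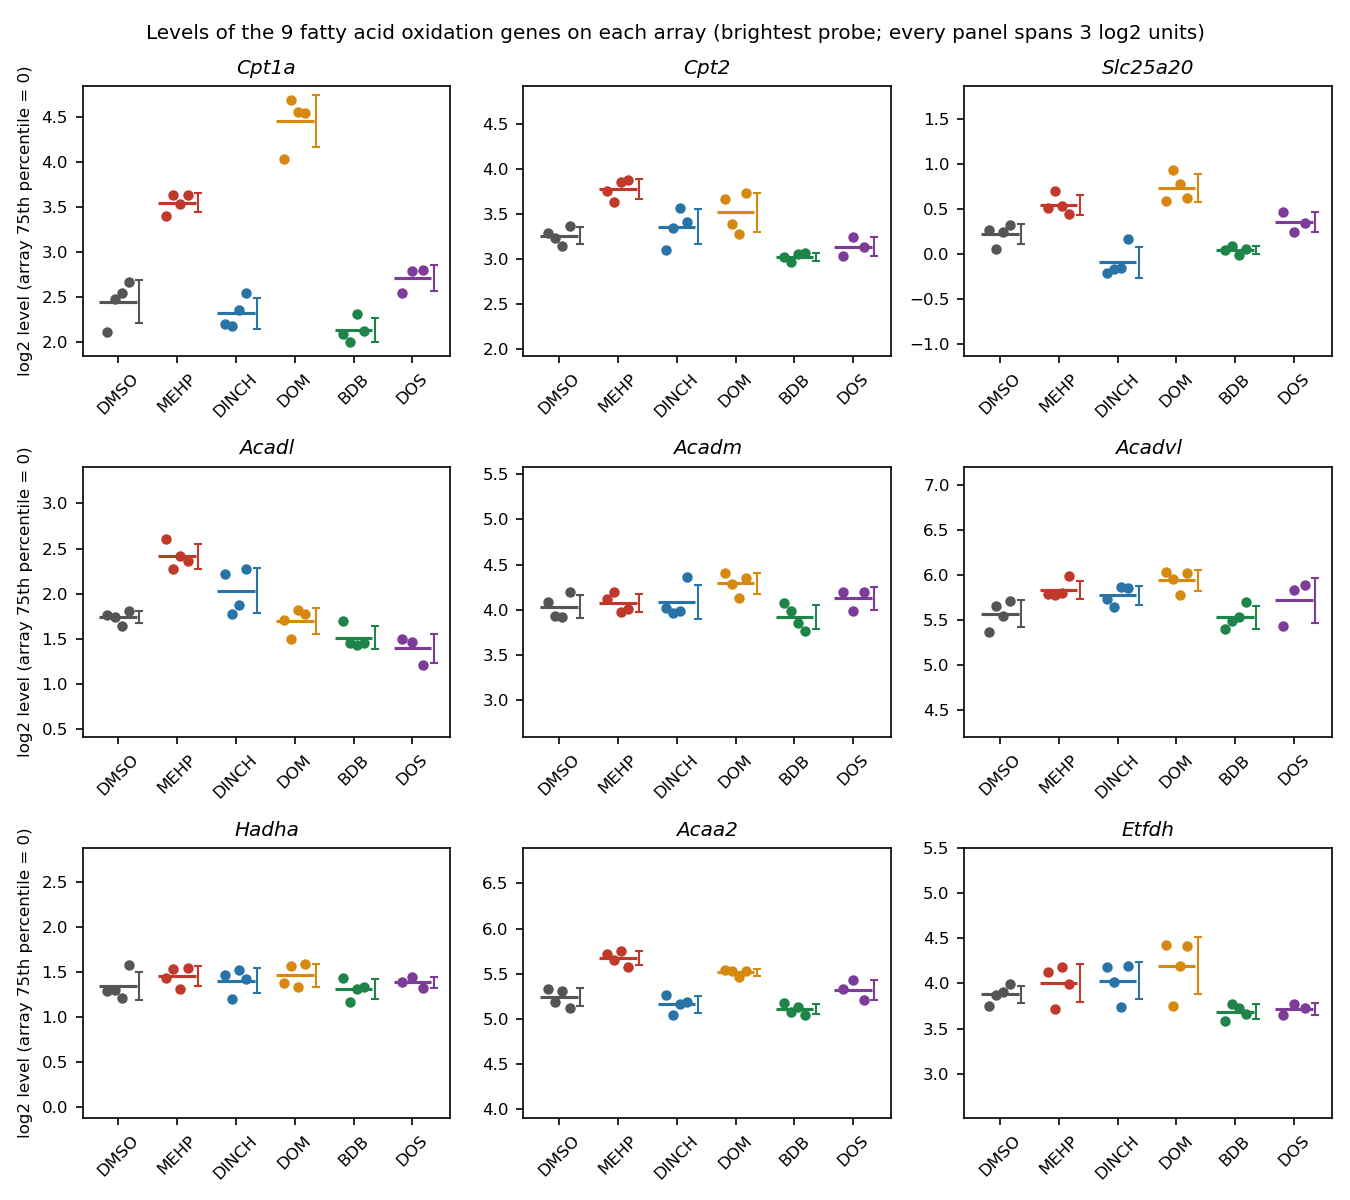
Log2 level of the 9 members on every array (y axis, brightest probe, relative to the array's 75th percentile) by group (x axis). Points are arrays, horizontal lines are group means and bars are ± 1 SD (n = 4, and 3 for DOS). Cpt1a stands apart under MEHP and DOM and Acadl under MEHP, while Hadha keeps all groups between 1.17 and 1.58.

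Among the enzymes of the spiral itself, Acaa2 and Acadvl shifted without reaching 1.5-fold. Acaa2, the mitochondrial 3-ketoacyl-CoA thiolase, measured 5.12 to 5.33 on the DMSO arrays, 5.57 to 5.75 under MEHP and 5.46 to 5.54 under DOM, without overlap. Its log2 fold changes were 0.44 under MEHP and 0.28 under DOM, with limma adjusted p = 0.035 and 0.042. Acadvl, the very long-chain dehydrogenase, measured 5.37 to 5.71 under DMSO and 5.78 to 6.03 under DOM, a change of 0.37 (limma adjusted p = 0.030). Under MEHP all 4 Acadvl arrays also lay above DMSO, at 5.78 to 5.98 (0.27, limma adjusted p = 0.22).

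Acadm, Hadha and Etfdh were called in no comparison with DMSO. Acadm, the medium-chain dehydrogenase, changed by 0.04 under MEHP and 0.26 under DOM on the log2 scale. Hadha gave values between -0.03 and 0.12 under the 5 compounds. Etfdh gave -0.19 under BDB to 0.32 under DOM, and its 4 DOM arrays ranged widely, from 3.76 to 4.42.

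A gene was called when a probe changed by more than 1.5-fold with an adjusted p below 0.05. By this rule MEHP called 2 of 9 members higher (Acadl and Cpt1a), beside 1.68% of all 11948 genes tested. DOM called 1 of 9 (Cpt1a), beside 20.5% of 12005 genes. DINCH called none, beside 8.26% of 11913 genes, and BDB and DOS called none, where limma called 0% of 11969 and of 11936 genes. At an unadjusted p below 0.05 and any size of change, 6 of 9 members passed under MEHP, 2 under DINCH, 5 under DOM, 3 under BDB and 1 under DOS, beside 21.6%, 34.4%, 50.9%, 19.0% and 7.73% of all genes. At an adjusted p below 0.05 and any size, 4 members passed under MEHP, beside 3.01% of all genes, and 4 under DOM, beside 38.7%. The arrays did not overlap with DMSO for 6 members under MEHP and 4 under DOM, beside 14.4% and 39.4% of all genes.

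The median log2 fold change of the 9 members was 0.32 under MEHP, 0.06 under DINCH, 0.28 under DOM, -0.18 under BDB and 0.09 under DOS. The median over all genes tested was -0.01, -0.0007, -0.03, -0.03 and -0.008. All 9 members had values above 0 under MEHP, where 47.1% of all genes did, and all 9 had values below 0 under BDB, where 42.8% of all genes were above 0. These 5 comparisons share the DMSO arrays.

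Of the direct comparisons between compounds, MEHP against BDB held the most calls of members. MEHP is a monoester of phthalic acid with a free carboxyl group, and BDB is a diester of a diol with benzoic acid. Of 9 members, Cpt1a, Acadl and Cpt2 were called higher under MEHP, beside 2.59% of all 11941 genes. Cpt1a differed by 1.42 ± 0.09 (SE, n = 4 and 4; limma adjusted p = 0.00060), with 1.37 to 1.51 within slides and 1.43 with the slide as a block. Acadl differed by 0.91 and Cpt2 by 0.76 (limma adjusted p = 0.0049 and 0.0042), and the dimmer Cpt2 probe gave 0.69. Cpt2 under BDB measured 3.02, 2.97, 3.06 and 3.07, below every MEHP array. Acaa2 and Slc25a20 differed by 0.57 and 0.50 (limma adjusted p = 0.010 and 0.015), under 1.5-fold, and Acaa2 was called without BDB replicate 1 (0.59) or MEHP replicate 4 (0.60) and after normexp background correction (0.60). Acadm, Acadvl, Hadha and Etfdh were not called, with 95% intervals of -0.05 to 0.37, 0.10 to 0.51, -0.06 to 0.34 and 0.07 to 0.57.

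MEHP against DINCH called Cpt1a and Slc25a20 higher under MEHP, beside 2.40% of 11836 genes. DINCH is a diester on a saturated ring, where MEHP is a monoester on an aromatic ring. Cpt1a differed by 1.23 ± 0.11 (SE, n = 4 and 4; limma adjusted p = 0.0011), with 1.18 to 1.35 within slides and 1.28 with the slide as a block. Slc25a20 differed by 0.64 (1.56-fold, limma adjusted p = 0.024), with 0.43 to 0.81 within slides. This second call was lost with the slide as a block (0.65, limma adjusted p = 0.051), after normexp background correction (0.56) and when MEHP replicate 1, 2, 3 or 4 or DINCH replicate 1 or 2 was left out, with values of 0.65, 0.59, 0.64, 0.67, 0.60 and 0.61 in that order. Acadl differed by 0.38 (95% interval 0.08 to 0.69), and Acadm by -0.01 (-0.26 to 0.25), neither of them called.

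DINCH against BDB called no member, beside 9.89% of 11902 genes. At an unadjusted p below 0.05 in limma 4 of 9 members passed, beside 38.7% of all genes. The largest member difference was 0.52 for Acadl (95% interval 0.22 to 0.82, limma adjusted p = 0.031), under 1.5-fold. It was called when BDB replicate 1 or DINCH replicate 2 was left out, at 0.59 and 0.61. For Cpt1a the difference was 0.19, with an interval of -0.07 to 0.45.

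DOM and DOS are dioctyl esters that differ in the double bond of the maleate core, which succinate lacks. Cpt1a was 3.35-fold higher under DOM (log2 difference 1.74 ± 0.17, SE, n = 4 and 3; limma adjusted p = 0.0016), and the dimmer probe gave 1.69. The difference was 1.82 and 1.75 within the 2 slides that held both compounds and 1.79 with the slide as a block. It was the member called, 1 of 9, beside 15.2% of 11935 genes. All 9 members had values above 0 in this pair, and the others ranged from 0.08 for Hadha to 0.48 for Etfdh, whose 95% interval was 0.09 to 0.87. With the replicate number as a block, which leaves out DOM replicate 2 because DOS has none of that number, Etfdh was called as well (0.63, limma adjusted p = 0.028), and so it was without DOM replicate 2 in the unblocked fit. Cpt1a, Slc25a20, Cpt2 and Acaa2 did not overlap between DOM and DOS, 4 of 9 members beside 38.6% of all genes, and the last 3 of them differed by 0.38, 0.38 and 0.19 (limma adjusted p = 0.063, 0.092 and 0.22).

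These 4 pairs were all that were compared. With p-values adjusted over the probes of all 4 together, the same calls stood: Cpt1a at an adjusted p of 0.00042 for MEHP against BDB, 0.0012 for MEHP against DINCH and 0.0023 for DOM against DOS, and Acadl, Cpt2 and Slc25a20 at 0.0026, 0.0023 and 0.0098 (limma).

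**Figure D3:**
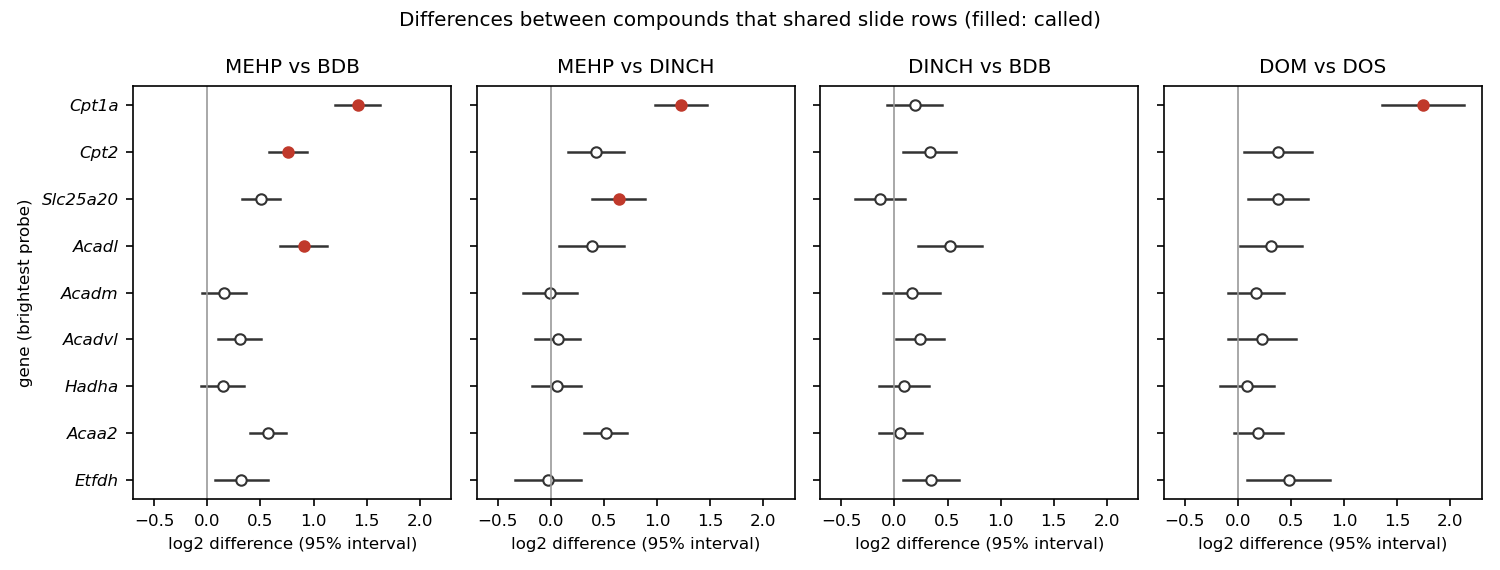
Log2 difference between compounds (x axis, first minus second) for the brightest probe of each member (y axis). Lines are 95% intervals and filled points are called. Cpt1a is filled in 3 of 4 pairs, at 1.42, 1.23 and 1.74, and DINCH against BDB has no filled point.

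Around the members, other genes of the pathway were counted from lists of known enzymes and regulators. Of 11 further mitochondrial beta-oxidation genes, all tested, none was called under MEHP, DINCH, BDB or DOS. Acot2, a mitochondrial acyl-CoA thioesterase, fell by 0.93 on the log2 scale under DOM (limma adjusted p = 0.018), from -0.11 to 0.97 on the DMSO arrays to -0.72 to 0.02, with overlap. Without DOM replicate 2 this call was lost (-0.83). Acot2 was also called lower for DINCH against BDB, 1 of 11 genes beside 9.89% of all genes. Against DMSO the lowest value of the list under DINCH was -0.70, which was not called. The list's median under MEHP was 0.01 and under DOM 0.05.

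Of 9 genes for acyl-CoA activation and carnitine handling, 7 were tested under DOM, where Cpt1c rose by 0.74 and Acsl1 fell by 0.91 on the log2 scale (limma adjusted p = 0.0023 and 0.00071). Cpt1c encodes a brain-enriched relative of CPT1A, and Acsl1 a long-chain acyl-CoA synthetase. Cpt1b, the muscle form of CPT1, was not tested in the MEHP, DINCH and DOM comparisons because it was too dim. The 2 calls under DOM were 28.6% of the genes tested, beside 20.5% of all genes. None of the list was called under the other 4 compounds against DMSO. In the direct pairs Acsl3 was called higher for MEHP against BDB, 1 of 8 genes tested beside 2.59% of all genes.

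Peroxisomes shorten very long and branched chains by a separate set of enzymes. Of 22 peroxisomal genes, 18 were tested, and Acox2, Ehhadh, Abcd2 and Acot4 were above background on no DMSO array. Under MEHP none of the 18 was called, and their median was 0.009. Under DOM 5 were called higher and none lower, 27.8% of those tested beside the 20.5% of all genes, with a median of 0.23. Hacl1, which cleaves 2-hydroxy acyl-CoA in alpha-oxidation, rose by 0.92, from a mean of 1.03 to 1.95 (limma adjusted p = 0.0019). Decr2, a peroxisomal dienoyl-CoA reductase, rose by 0.78 (limma adjusted p = 0.00076).

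Catalase (Cat) and Acox3 were called on a dimmer probe alone, at 0.71 and 0.81, while their brightest probes gave 0.56 and -0.26, so that the Acox3 probes disagreed in sign. Under DINCH 1 of 18 was called, Hacl1 at 0.82 (limma adjusted p = 0.011), beside 8.26% of all genes, and the median was 0.19. In the direct pairs, MEHP against BDB called Cat and Hacl1 higher, 11.1% of those tested beside 2.59% of all genes. DOM against DOS called Acox3, Cat, Decr2 and Hacl1 higher, 22.2% beside 15.2%. For DINCH against BDB the share was 22.2% beside 9.89%, and the genes called higher included Acox3, Hacl1 and Phyh. These calls count any probe of a gene, and Acox3 and Cat have 2 probes each.

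Of the genes around malonyl-CoA, 4 of 5 were tested. Acacb, the acetyl-CoA carboxylase placed at mitochondria, rose by 0.83 under DOM (limma adjusted p = 0.0045). Acaca, the cytosolic carboxylase, was not called against DMSO, but was 1.80-fold higher under MEHP than under DINCH (limma adjusted p = 0.0078). Acaca was called higher for MEHP against BDB as well, on a dimmer probe alone. Of 3 ketone body genes tested, Oxct1, which reactivates acetoacetate, fell by 0.66 on the log2 scale under DOM (limma adjusted p = 0.0037), a call lost without DMSO replicate 1 (-0.58).

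**Figure D4:**
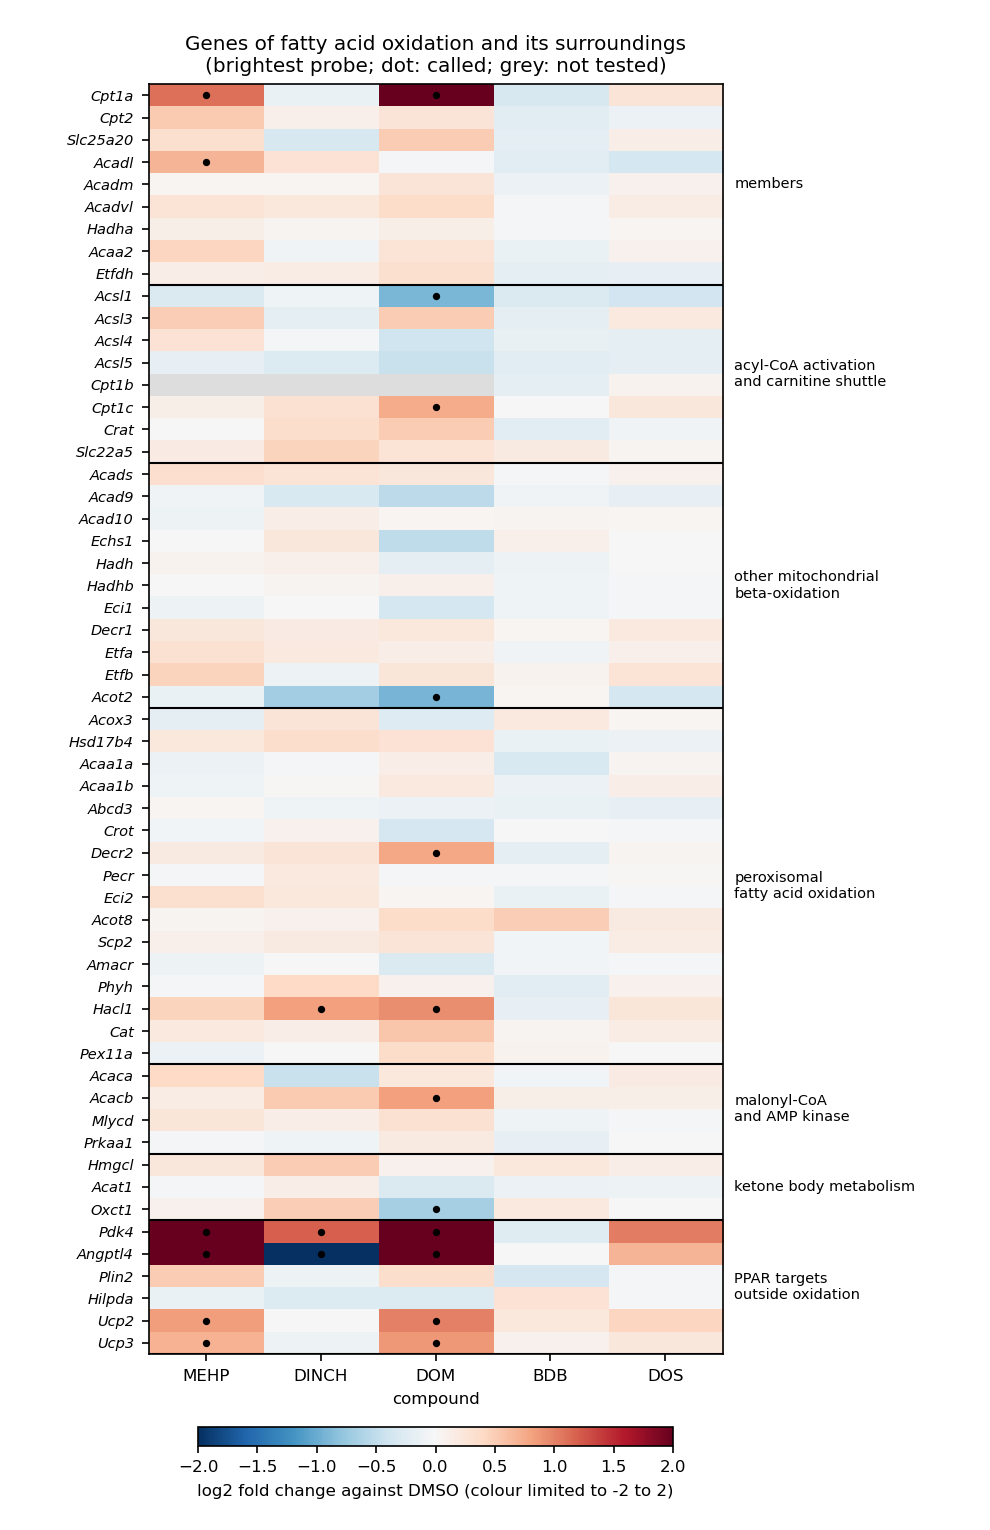
Log2 fold change against DMSO (colour, limited to -2 to 2) of the members and most of the listed genes (y axis, brightest probe) under 5 compounds (x axis). Dots mark brightest probes that were called and grey marks genes not tested. The dots lie in the MEHP, DINCH and DOM columns, and BDB and DOS have none.

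Of 6 PPAR targets outside oxidation, 4 rose under MEHP and under DOM, namely Pdk4, Angptl4, Ucp2 and Ucp3. The share called over all genes was 1.68% under MEHP and 20.5% under DOM. Pdk4, a kinase that shuts pyruvate dehydrogenase, rose by 3.61 under MEHP and 3.46 under DOM on the log2 scale (limma adjusted p = 1.6e-07 and 0.00011). Angptl4, an inhibitor of lipoprotein lipase, rose by 3.27 and 3.02 (limma adjusted p = 0.0018 and 0.00016). Under DINCH the same pair split, with Pdk4 up by 1.198 and Angptl4 down by 2.72 (limma adjusted p = 0.013 and 0.0062), while no member was called. The uncoupling protein genes Ucp2 and Ucp3 rose by 0.83 and 0.69 under MEHP and by 1.01 and 0.86 under DOM. Under BDB and DOS none of the 6 was called. At an unadjusted p below 0.05 in limma 3 of 6 passed under each, beside 19% and 7.73% of all genes. The group means of Pdk4 were -1.44 under DMSO and -0.42 under DOS, and those of Angptl4 were 3.87 and 4.54.

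All 7 genes for PPARs and their coactivators were tested. None was called under MEHP, where the list's median was -0.14. The largest log2 fold change of a brightest probe in the list was 1.23 under MEHP, 1.24 under DINCH, 1.36 under DOM, 1.08 under BDB and 1.24 under DOS. None of these largest values was called, and these comparisons share the DMSO arrays. In each of the 4 direct pairs 6 of the 7 genes were tested and none was called. Brightest probes there ranged from -0.50 to 0.61 for DINCH against BDB and from -0.55 to 0.45 for MEHP against DINCH. Ppargc1a, a coactivator that drives mitochondrial oxidative genes, rose by 1.21 under DINCH (limma adjusted p = 0.0085). Its relative Ppargc1b fell by 1.08 on the log2 scale under DOM (limma adjusted p = 0.011), where 1 of 4 DOM arrays was well above background. The fall was 0.29 without a call after normexp background correction. Ppargc1b entered this test only through the 4 DMSO arrays, the group where it was higher. The filter thus favoured a fall, and its size rests on values near background. Of 9 genes of general mitochondrial content none was called under MEHP, with a median of -0.005. Hspd1, a mitochondrial chaperonin, fell by 0.73 on the log2 scale under DOM (limma adjusted p = 0.0031), and the list's median there was -0.30.

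The genes most like Cpt1a across the 23 arrays were Aacs (Pearson r = 0.97), Hsd17b7 (0.94), Erc2 (0.94), Srxn1 (0.94) and Ucp3 (0.93), among 11157 genes well above background on every array. The arrays share 6 treatments and 3 slides, so these values are descriptive. Aacs, the acetoacetyl-CoA synthetase, had group means of 3.01 under DMSO, 3.65 under MEHP and 4.18 under DOM. Hsd17b7, a cholesterol synthesis enzyme, had means of 1.06, 1.73 and 2.98. Among the members Slc25a20 ranked highest at 31 (r = 0.88) and Acadl lowest at 4079 (r = 0.23). Over the 15 arrays outside MEHP and DOM, r with Cpt1a was 0.57 for Slc25a20, -0.16 for Acadl and 0.82 for the dimmer Cpt1a probe.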

How the data were processed

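RNA of 23 TM4 samples was labelled with Cy3 and hybridized to 1-colour Agilent 8x60K arrays. The authors extracted spots with Feature Extraction, and the deposited intensity is background-subtracted, linear, without scaling across arrays. A table of log2 values was deposited too, shifted to the 75th percentile and centred on each probe's median, which served as an alternative and correlated with the matching array at 0.9995 or more.

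Here the log2 intensity (floor 1) was expressed against the 75th percentile of each array's non-control spots (204.6 to 350.7 in intensity). Outlier spots were dropped before a probe's spots were averaged. Probes were named through RefSeq accessions, and 29099 of 55681 were not matched. A probe entered the test if all arrays of 1 group showed it well above background and not below their 20th percentile. Each comparison was fitted alone with limma 3.58.1 in R 4.3.3 and adjusted by Benjamini-Hochberg over all tested probes. Genes are represented by their brightest probe. From 43.4% to 52.2% of probes were well above background on an array, and the number of arrays limits the precision. On simulated data for MEHP against DMSO, 78.0% of 200 probes changed by 1 log2 unit were recovered, against 60.0% for DOS against DMSO and 67.0% for DOM against DOS.

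Same-numbered samples deviated together for DINCH, BDB and DOS against DMSO, DINCH against BDB and DOM against DOS. There r was over 0.1 in every pair (lowest 0.12). In the other 4 comparisons not every pair passed 0.1 (lowest -0.22). For MEHP against DMSO, r was 0.53, 0.32 and 0.34 for replicates 1, 3 and 4 and -0.16 for replicate 2. MEHP and DOM replicate 2 were on slide 1, and DMSO, BDB and DINCH replicate 2 on slide 2. Most same-numbered arrays shared a slide, so replicate number and slide cannot be fully told apart. The text names the members, listed genes called for a compound, Pdk4 and Angptl4, and the 5 genes most like Cpt1a. Acaca, Acsl3, Phyh, Cpt1b and genes too dim for a test were added after their values were seen. The members and lists were chosen with earlier results of these data known. Counts cover whole lists, but some listed genes are not reported here by name. Tools were Python 3.11.15 and matplotlib 3.10.9.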

Additional observations from a re-analysis of the deposited data

Results flagged for a closer look

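In 5 of the 55 groups of 4 arrays examined over the 11 member probes, 1 array lay far from the other 3, where chance flags about 1 group in 20. Slc25a20 on DINCH replicate 4 was at 0.16 while the next array was at -0.15. Acadl on BDB replicate 1 was at 1.70 and the next at 1.45. Acadm on DINCH replicate 4 was at 4.36 and the next at 4.02. Acadvl on MEHP replicate 4 was at 5.98 and the next at 5.80. Acaa2 on DOM replicate 3 was at 5.46, below the next at 5.52. DOS, with 3 arrays, was not examined.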

How the results depend on the processing

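Calls of Cpt1a kept their direction in all comparisons and under all alternatives run, and their side of the threshold with 1 exception, MEHP against DMSO with no filter on dim probes (adjusted p = 0.11 in limma, of 0.00012 to 0.11 over all alternatives), where Acadl was lost too and 0 members were called. Cpt1a changes ranged from 0.99 to 1.17 under MEHP and 1.89 to 2.14 under DOM when single arrays were left out. No called probe of a member or listed gene reversed, and of 24 listed gene values 11 were called under every alternative. With the brightest probe alone, Cat (0.56) and Acox3 (-0.26) under DOM rest on another probe than the called one, and Acox3 then has the opposite sign. With no filter, Ucp2 and Ucp3 under MEHP, all 4 of DINCH's and Acot2 and Ppargc1b of DOM's were among those lost. Under DOM, normexp ended calls including Cat (0.41) and Ppargc1b (-0.29), and quantile normalization those of Hspd1 (-0.53), Oxct1 (-0.58) and Ppargc1b (-0.89). Of 81 member values, 68 were called under no setting.

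The number of genes called under MEHP was 201 and became 115 with normexp background correction, 3 with no filter and 98 with detection on 1 array, and 88 to 237 without single arrays (116 without MEHP replicate 1, 88 without MEHP replicate 2 or 4, 97 without DMSO replicate 3). For DINCH 984 became 594, 97 and 609 in that order, and 571 to 1055 (571 without DMSO replicate 3). For DOM 2463 became 1627 with normexp. For BDB 0 became 42 with normexp, 100 with slide as a block, 120 in 1 fit over all groups, 19 with the brightest probe alone and 82 with a variance trend. For DOS 0 became 2 with normexp, and 0 to 8 without single arrays (8 without DOS replicate 3).

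Members called for MEHP against BDB were 3, 1 with no filter, which was Cpt1a, and 4 with normexp or without BDB replicate 1 or MEHP replicate 4, where Acaa2 was added. All genes called in this pair were 309, and 179 with normexp, 6 with no filter, 123 with detection on 1 array and 111 to 450 without single arrays (204, 111 and 152 without MEHP replicate 1, 2 and 4, 126 and 149 without BDB replicate 2 and 4). For MEHP against DINCH the members called were 2, and 1 with no filter, detection on 1 array, the slide as a block or the replicate block, and 1 to 2 without single arrays, and with normexp Acaa2 (0.59) took the place of Slc25a20 (0.56). All genes called there were 284, and 19 with no filter, 88 with detection on 1 array, 166 with the replicate block and 83 to 307 without single arrays (132, 83, 143 and 121 without MEHP replicates 1 to 4, 177 and 160 without DINCH replicate 1 and 4). For DINCH against BDB all genes called fell from 1177 to 675 with normexp and 356 with no filter, and for DOM against DOS from 1815 to 401 with no filter. For DINCH against BDB the members called were 0 to 1, and for DOM against DOS 1 to 2 without single arrays and 2 with the replicate block. The replicate block changed no other of these counts by over 1.5 times. Fewer samples or other sets of tested probes enter some of these settings, and otherwise the cause was not tested.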
